A study of Mus musculus with 6 samples.

Results

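The genes described here are the Notch receptors *Notch1*, *Notch2*, *Notch3* and *Notch4*, the ligands *Jag1*, *Jag2*, *Dll1* and *Dll4*, and the target genes *Hes1* and *Hey1*. They were chosen by gene symbol from a table of 17854 mouse genes, and all 10 of the 10 symbols were found. Bulk RNA sequencing had been done on 6 libraries of Tomato+ cells, 3 in each of 2 groups of male C57BL/6 mice. The MSC-derived libraries hold Tomato+ cells sorted from the knee cartilage of wild-type mice, in which osteoarthritis had been induced by anterior cruciate ligament transection and whose joints had then received *Prrx1*-lineage mesenchymal stromal cells (MSCs). Those MSCs were Tomato+ cells sorted from inguinal fat of donor mice carrying *Prrx1-Cre* and the *R26* tdTomato reporter. The endogenous libraries hold Tomato+ articular cells of *Prrx1-Cre; R26* tdTomato mice matched for age and sex, for which the sources used here state neither surgery nor injection. The *Prrx1* promoter drives the Cre in early limb mesenchyme, so Tomato marks all descendants of such cells, osteoblasts and adipose stroma included, and no exclusion of blood or endothelial cells is described for the sort from cartilage. The groups differ in the origin of the cells, the surgery, the injection and the host at once, and these cannot be told apart.

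Notch signalling passes between touching cells. A Jagged or Delta-like ligand on the sending cell pulls on a Notch receptor of its neighbour, the receptor is cut by an ADAM protease and by gamma-secretase, and the freed inner part joins the DNA-binding protein RBPJ and a Mastermind co-activator to switch on genes such as *Hes1* and *Hey1*, which encode repressors of transcription. In skeletal tissue the pathway is known for restraining the maturation of mesenchymal progenitors, *Notch3* is best known from vascular smooth muscle and pericytes, and *Notch4* and *Dll4* from endothelium.

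Promoter sequence is shown for *Notch2*, *Notch3* and *Jag1*, the receptors and the ligand whose shares of receptor or ligand mRNA differed most between the groups. RefSeq windows (GRCm38.p6) were found for 8 of the 10 genes, in 9 windows, and not for *Hes1* and *Hey1*. Each window runs from 250 bases before to 50 bases after a transcription start, and the 250 bases before the start are printed 5′ to 3′ on the gene's strand. Capitals mark the N box CACNAG or its reverse complement, letters that HES proteins are known to bind.
*Notch2*, chr3:98013288-98013537, plus strand: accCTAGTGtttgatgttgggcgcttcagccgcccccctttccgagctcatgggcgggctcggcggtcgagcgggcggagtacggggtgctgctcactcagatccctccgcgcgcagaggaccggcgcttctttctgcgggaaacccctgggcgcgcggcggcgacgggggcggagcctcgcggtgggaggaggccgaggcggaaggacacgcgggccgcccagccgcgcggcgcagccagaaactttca
*Notch3*, chr17:32166891-32167140, minus strand: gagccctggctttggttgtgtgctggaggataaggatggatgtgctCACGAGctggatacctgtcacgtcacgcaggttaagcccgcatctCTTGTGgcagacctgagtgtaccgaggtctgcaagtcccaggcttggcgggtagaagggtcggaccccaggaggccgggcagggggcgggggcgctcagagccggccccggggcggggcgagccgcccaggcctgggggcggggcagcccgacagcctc
*Jag1*, chr2:137116521-137116770, minus strand: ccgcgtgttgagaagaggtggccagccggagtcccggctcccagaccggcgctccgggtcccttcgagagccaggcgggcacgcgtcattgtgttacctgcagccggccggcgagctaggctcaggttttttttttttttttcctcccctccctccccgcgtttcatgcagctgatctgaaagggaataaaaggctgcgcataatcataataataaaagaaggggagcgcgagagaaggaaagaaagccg
The N box was found on either strand in 5 of the 9 windows, those of *Notch1*, *Notch2*, *Notch3*, *Dll4* and 1 of 2 for *Dll1*, against 42.5% of 32851 mouse promoter windows. The RBPJ core TGGGAA was in 0 of the 9 windows (25.6% of all windows), as were its longer form GTGGGAA (6.38%), which contains it, and the E box CACGTG (7.15%). The G and C content of the printed stretch was 72.0% for *Notch2*, 68.8% for *Notch3* and 57.2% for *Jag1*, against a median of 52.4% for all windows. These matches describe letters in a window and not sites in use.

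The depth was even, with 22060628 to 24881796 expected counts per library, so that 3 counts, taken as the floor of detection, were worth 0.121 to 0.136 CPM (counts scaled to a common library size). The libraries labelled as chondrocytes were checked against marker genes. All 6 chondrocyte markers were lower in the MSC-derived libraries, with a summed level of 142.7 to 149.4 TPM (transcript abundance per length, scaled to a common sum) against 16234 to 18134, and *Col2a1* (collagen II) had a log2 fold change of -6.30 (SE 0.06). All 5 macrophage markers were higher, at 5412 to 5533 TPM against 33.2 to 40.2, with *Adgre1* (F4/80) at a log2 fold change of 8.34 (SE 0.58), or 7.77 without endogenous 1 and 9.21 without endogenous 3. All 5 leukocyte, 5 neutrophil and 5 erythroid markers, 3 of 5 B cell markers and 4 of 5 T cell markers were also higher. All 6 osteoblast and all 6 stromal markers were lower. In the MSC-derived libraries the neutrophil markers had the largest sum among the lists, 106266 to 115992 TPM against 5047 to 7793. *S100a8* alone held 91444 to 100829 TPM of it. In the endogenous libraries the osteoblast markers had the largest sum, 53268 to 68771 TPM against 565 to 586, above the chondrocyte markers. None of these markers was at 0 in all libraries of a group. The names MSC-derived and endogenous follow the sample labels and the authors' description, and below they stand for all RNA in each library. By these markers the MSC-derived libraries held much blood cell RNA and little chondrocyte RNA. The part of their RNA that came from the injected cells was not tested. The library endogenous 1 stood apart: of 13245 genes with at least 20 counts in endogenous 2 and 3, 379 (2.86%) were at 0 in it, whereas the same count for MSC-derived 1 was 0. Several of the results that rest on this library are given with and without it. In bulk libraries, fewer cells of a type and less RNA per cell cannot be told apart, which holds for each level below.

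The 10 genes split by direction. With edgeR's quasi-likelihood test and Benjamini-Hochberg adjustment over 14289 genes, at an adjusted p of 0.05 or less, 2 were higher in the MSC-derived cells (*Notch1* and *Notch2*), 4 were lower (*Notch3*, *Jag1*, *Hes1* and *Hey1*) and 4 were not called. Of all genes tested, 31.3% were called higher and 30.3% lower, 61.6% in all, so that 6 called genes of 10 lie at the background. For 8 of the 10, all libraries of 1 group lay above all of the other, as was so for 72.4% of all genes. At an absolute log2 fold change of 1 or more as well, 0 were higher and 4 lower, where 41.2% of all genes were called, 19.3% higher and 21.9% lower. The members' median log2 fold change was -0.34, beside 0.05 for all genes tested. The contrast therefore reached much of the transcriptome, and what follows concerns which Notch genes moved, how far, and how the balance among receptors and among ligands differed. The balance of calls depends on the scale: on log2(TPM + 0.1), an alternative chosen after seeing the data, 21.4% of all genes were called higher and 41.6% lower, and the members split into 0 higher and 4 lower.

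**Figure D1:**
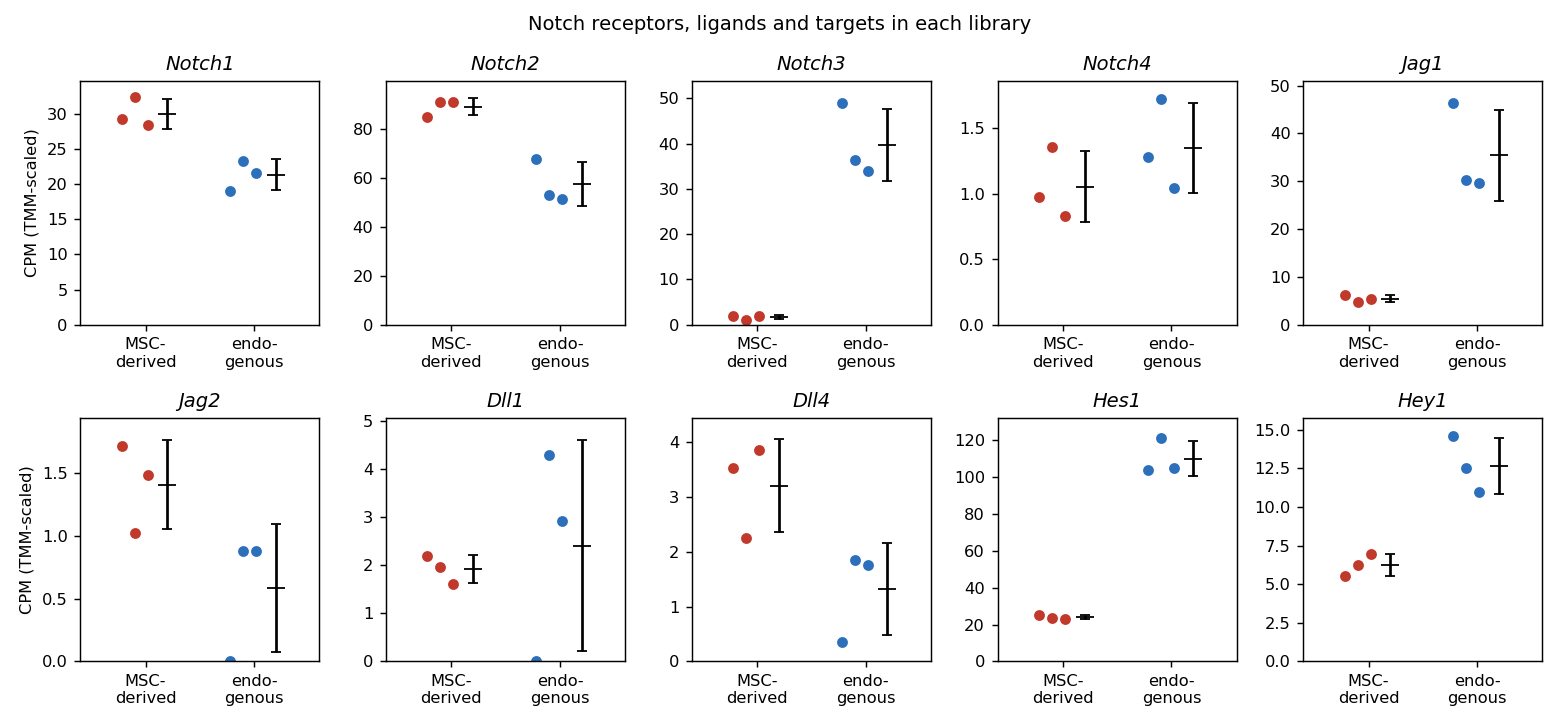
Level of each of the 10 Notch genes in each library, in CPM scaled by TMM on linear axes from 0 that differ between genes, with a point per library and, beside each group, its mean with a bar of 1 SD (n = 3). The endogenous points of *Notch3*, *Jag1*, *Hes1* and *Hey1* lie above all MSC-derived points, those of *Notch1* and *Notch2* lie below, and *Jag2* and *Dll1* are at 0 in endogenous 1.

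Among the receptors, *Notch3* showed the largest difference. It stood at 2.03, 1.15 and 1.84 CPM in the MSC-derived libraries (52, 28 and 42 counts) and at 48.9, 36.3 and 34.1 CPM in the endogenous ones (1110, 821 and 814 counts). The lowest endogenous library was thus far above the highest MSC-derived one. The log2 fold change was -4.57 (SE 0.27, edgeR adjusted p = 4.47e-06), a level 23.7-fold higher in the endogenous cells. Only 4.98% of the genes tested had a larger absolute log2 fold change. The 6 mural cell markers, which mark the pericytes and smooth muscle in which this receptor is best known, were all lower as well, with a summed level of 32.3 to 35.5 TPM against 423.5 to 442.6, and *Rgs5* at a log2 fold change of -3.18 (SE 0.13). The mural markers were not alone in this, with a median log2 fold change of -3.23. For the stromal, osteoblast and chondrocyte markers, all lower too, the medians were -2.11, -5.80 and -6.85. The part of any of these cell types in the *Notch3* level was not tested.

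*Notch2*, a receptor of broad expression that also acts in myeloid and bone cells, moved the other way. Its levels were 85.1, 91.2 and 91.1 CPM in the MSC-derived libraries and 67.8, 53.1 and 51.6 CPM in the endogenous ones, without overlap. The log2 fold change was 0.63 (SE 0.12, edgeR adjusted p = 0.00293), or 1.55-fold higher. *Notch1*, the receptor best known for its need in T cell development, stood at 29.2, 32.3 and 28.4 CPM against 18.9, 23.3 and 21.6 CPM. Its libraries did not overlap either, and the log2 fold change was 0.49 (SE 0.13, edgeR adjusted p = 0.0125), or 1.41-fold higher. These are small differences in this contrast, since 60.5% and 68.1% of the genes tested had larger absolute ones than *Notch2* and *Notch1*. They also depend on the scale: in TPM, *Notch1* averaged 4.14 ± 0.312 against 3.99 ± 0.159 (SD, n = 3) and *Notch2* 11.1 ± 0.421 against 9.83 ± 2.39. On log2(TPM + 0.1) their log2 fold changes were 0.05 (limma adjusted p = 0.812) and 0.20 (adjusted p = 0.388), where the median of all genes lay at -0.34. Relative to the median of all genes, they were 0.39 and 0.54 on that scale, and 0.45 and 0.59 in the edgeR fit. The call of *Notch1* was also lost without MSC-derived 2, at a log2 fold change of 0.44 (edgeR adjusted p = 0.0570). Leukocyte markers were higher in the same libraries, at 2875 to 2905 TPM against 160.9 to 225.3, and their part in the levels of *Notch1* and *Notch2* was not tested.

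*Notch4*, the endothelial receptor, was near the lower end in all libraries. It had 25, 33 and 19 counts in the MSC-derived libraries and 29, 39 and 25 in the endogenous ones, and the groups overlapped. The log2 fold change of -0.35 (SE 0.48, edgeR adjusted p = 0.544) did not pass the test. Of the endothelial markers, 4 of 6 were higher in the MSC-derived libraries and 2 were not called. All 6 together came to 31.0 to 33.4 TPM against 16.6 to 22.1. *Pecam1* (CD31), with a log2 fold change of 2.17 (SE 0.24), averaged 13.6 TPM against 4.07. The 2 not called, *Tek* and *Esam*, averaged 1.11 and 8.98 TPM against 1.16 and 8.93.

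Levels of different genes can be set side by side only per transcript length, for which TPM was used. In the MSC-derived cells the receptors ranked *Notch2* (11.1 TPM), *Notch1* (4.14), *Notch3* (0.273) and *Notch4* (0.21), where the ranges of *Notch3* and *Notch4* overlapped. In the endogenous cells *Notch2* (9.83 TPM) and *Notch3* (8.94) overlapped, *Notch1* (3.99) came next, and *Notch4* (0.367) was last. The reads of all 4 receptors lay between 2793 and 3072 counts per MSC-derived library and between 2588 and 3108 per endogenous library, which overlap. In summed TPM the receptors came to 15.2 to 16.4 against 19.8 to 28.8.

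The make-up of the receptor mRNA does not depend on the scaling between libraries, because each share is taken within a library. *Notch3* held 2.17%, 1.16% and 1.92% of the summed receptor TPM in the MSC-derived libraries and 41.4%, 36.8% and 36.7% in the endogenous ones. The mean difference was 36.5 percentage points in favour of the endogenous cells. *Notch2* held 70.6% ± 1.32 in the MSC-derived cells and 42.4% ± 1.37 in the endogenous ones, a difference of 28.2 points (SD, n = 3). *Notch1* held 26.3% ± 1.27 against 17.8% ± 3.64 (SD, n = 3), a difference of 8.58 points. *Notch4* held 1.33% against 1.62%, and its libraries overlapped. In words, receptor mRNA in the MSC-derived libraries was nearly all *Notch2* and *Notch1*, whereas *Notch3* stood beside *Notch2* in the endogenous libraries. With 3 libraries against 3, the smallest exact two-sided permutation p is 0.1, which each of the *Notch1*, *Notch2* and *Notch3* shares reached (0.114 after Benjamini-Hochberg adjustment over the 8 receptor and ligand shares), so that no share could pass a threshold of 0.05. For *Notch4* the exact permutation p was 0.4.

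**Figure D2:**
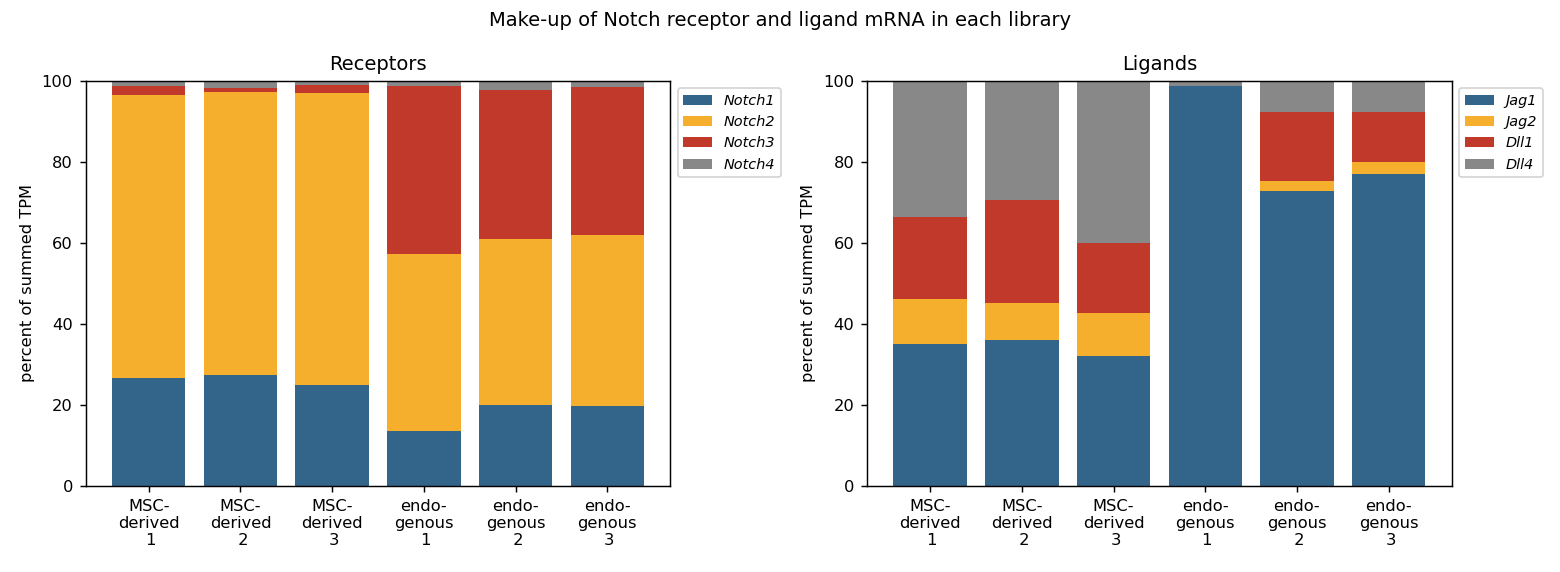
Make-up of receptor and ligand mRNA in each library, as the percent of the summed TPM of the 4 receptors (left) and of the 4 ligands (right). *Notch3* takes 36.7% to 41.4% of the receptor bars in the endogenous libraries and 1.16% to 2.17% in the MSC-derived ones, and *Jag1* takes 72.9% to 98.8% of the ligand bars against 32.1% to 36.0%.

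Among the ligands, *Jag1*, the main Jagged ligand of mesenchymal and vascular cells, differed most. Its levels were 6.22, 4.68 and 5.42 CPM in the MSC-derived libraries (159, 114 and 124 counts) and 46.4, 30.3 and 29.6 CPM in the endogenous ones (1054, 686 and 708 counts). All endogenous libraries lay above all MSC-derived ones, with endogenous 1 the highest. The log2 fold change was -2.70 (SE 0.23, edgeR adjusted p = 3.54e-05), a level 6.51-fold higher in the endogenous cells. Without endogenous 1 it was -2.51 (adjusted p = 7.72e-13), so the difference does not rest on that library.

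The other ligands had few reads, and none passed the test. *Dll4*, a ligand of endothelial tip cells, had 90, 55 and 88 counts in the MSC-derived libraries and 8, 42 and 42 in the endogenous ones. The groups did not overlap in CPM (2.26 to 3.85 against 0.352 to 1.86), but the log2 fold change of 1.27 (SE 0.63) had an edgeR adjusted p of 0.117. Without endogenous 1 it was 0.77 (adjusted p = 0.0412), so that a smaller difference passed once the library with 8 counts was left out. *Jag2* had 44, 25 and 34 counts against 0, 20 and 21, and its log2 fold change was 1.25 (SE 1.03, edgeR adjusted p = 0.320). That value includes the 0 in endogenous 1. Across the 18 alternative fits described below it ran from 0.22 to 2.40 and was never called. *Dll1*, a ligand of progenitor and stromal niches, had 56, 48 and 37 counts against 0, 97 and 70. The count of 0 in endogenous 1 allows a level of up to 0.128 CPM, while endogenous 2 and 3 stood at 4.29 and 2.93 CPM, above all MSC-derived libraries (1.62 to 2.19 CPM). With all libraries the log2 fold change of *Dll1* was -0.32 (SE 1.15, edgeR adjusted p = 0.824), and without endogenous 1 it was -0.95 (adjusted p = 0.00953). The direction of *Dll1* thus could not be read from the 6 libraries together. The 0 counts of *Dll1* and *Jag2* fall in the library in which 2.86% of well-covered genes were at 0.

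In summed TPM the 4 ligands came to 3.03 to 4.15 in the MSC-derived libraries and 11.9 to 17.0 in the endogenous ones. *Jag1* held 34.9%, 36.0% and 32.1% of this sum in the MSC-derived libraries and 98.8%, 72.9% and 77.1% in the endogenous ones. *Dll4* held 34.3% ± 5.42 against 5.49% ± 3.68 (SD, n = 3), so that in the MSC-derived cells its level per length (1.26 TPM) was not separated from that of *Jag1* (1.25 TPM). *Dll1* held 20.9% ± 4.19 against 9.79% ± 8.79, and *Jag2* 10.4% ± 1.07 against 1.80% ± 1.57. The ligand mRNA was thus spread over 4 genes in the MSC-derived cells and mostly *Jag1* in the endogenous ones. The groups did not overlap for any of the 4 ligand shares, each with the smallest exact permutation p of 0.1 (adjusted 0.114). For *Dll1* they barely parted, at 17.1% in MSC-derived 3 and 17.0% in endogenous 2. The TPM of *Dll1* itself was higher in endogenous 2 and 3 (2.14 and 1.48) than in the MSC-derived libraries (0.64 to 0.84). The ligand shares include endogenous 1, in which the 0 counts of *Dll1* and *Jag2* raise the share of *Jag1*. Without it the share of *Dll1* differed by 6.23 percentage points in place of 11.1. Using expected counts in place of TPM changed the sign of the difference for none of the 8 receptor and ligand shares. FPKM must give the same shares as TPM, because the 2 are proportional within a library. Leaving out 1 library cannot change the sign for a share whose groups do not overlap. For *Notch4*, the only share that overlapped, the sign did not change either.

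Both target genes were lower in the MSC-derived cells. *Hes1*, the repressor that most cell types switch on under Notch, stood at 25.0, 23.7 and 23.0 CPM in the MSC-derived libraries and at 104.1, 121.1 and 104.9 CPM in the endogenous ones. The spread within each group was small beside the gap between them. The log2 fold change was -2.20 (SE 0.10, edgeR adjusted p = 1.27e-06), a level 4.60-fold higher in the endogenous cells, and 22.0% of the genes tested had a larger absolute difference. *Hey1*, a related repressor, stood at 5.51, 6.28 and 6.95 CPM against 14.6, 12.5 and 11.0 CPM. Its log2 fold change was -1.02 (SE 0.20, edgeR adjusted p = 0.00308), or 2.03-fold higher in the endogenous cells, without overlap. Per length, *Hes1* was the highest of the 10 genes in both groups, at 24.5 ± 1.17 TPM in the MSC-derived cells and 153.7 ± 10.9 TPM in the endogenous ones (SD, n = 3). *Hey1* averaged 3.97 TPM in the MSC-derived cells, where its range overlapped that of *Notch1*. In the endogenous cells it averaged 11.3 TPM, and its range overlapped those of *Jag1*, *Notch2* and *Notch3*. *Hes1* and *Hey1* also answer to signals other than Notch.

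**Figure D3:**
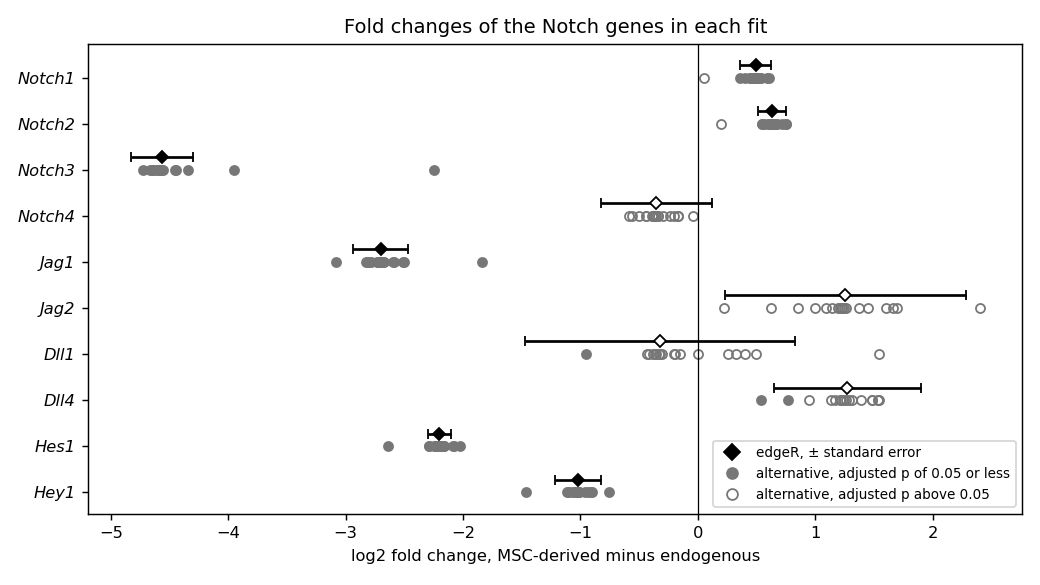
Log2 fold change of each Notch gene, MSC-derived minus endogenous, in the edgeR fit (diamonds, bars of 1 SE) and in each of 18 alternative fits (circles), with filled symbols for an adjusted p of 0.05 or less. The points of *Notch3*, *Jag1*, *Hes1* and *Hey1* lie left of 0 in all fits, those of *Notch1* and *Notch2* lie right of 0, and those of *Dll1* fall on both sides.

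The differences of *Notch3*, *Jag1*, *Hes1* and *Hey1* were called in all of the 18 alternative fits. How far DESeq2, 1 of these fits, adds support cannot be told. On simulated counts its share of false calls was well above the threshold, but those counts followed edgeR's own fit with few genes changed. Across the 18 fits the log2 fold change ran from -4.73 to -2.25 for *Notch3* and from -3.08 to -1.84 for *Jag1*. It ran from -2.64 to -2.03 for *Hes1* and from -1.47 to -0.75 for *Hey1*. Here the smallest *Notch3* value came from log2(FPKM + 1), a scale on which a pseudocount of 1 shrinks the change of a gene with low FPKM.

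The genes with profiles most like each member's were named by the smallest Euclidean distance between log2 CPM profiles centred over the 6 libraries, over the genes whose log2 CPM averaged 5 or more. For *Notch3* they were *Peg3*, *Sdk2* and *Ddah1* (nearest distance 0.333), and for *Jag1* *Hr*, *Pls3* and *Bmpr1a* (0.336). For *Hes1* they were *Numbl*, *Dkk3* and *Mapre3* (0.158), and for *Hey1* *Matn4*, *Brwd1* and *Pgrmc2* (0.154). For *Notch1* they were *Eif4e2*, *Nacc1* and *Tmem208* (0.0723), and for *Notch2* *Tmem123*, *Ap3s1* and *Sh3glb1* (0.0455). The members that were not called had farther neighbours. These members had 0 to 97 counts per library, and all candidate neighbours had much higher levels. The part of low counts in the distances was not tested. For *Notch4* the neighbours were *Slc50a1*, *Rab3gap2* and *Tmem87b* (0.497), and for *Dll4* *Nudt16l1*, *Itpk1* and *Etfdh* (0.635). For *Jag2* they were *Pfkfb4*, *Etfdh* and *Bak1* (1.37), and for *Dll1* *Nudt16l1*, *Etfdh* and *Pfkfb4* (3.10). The neighbours of *Dll1* did not share its difference between the groups: their log2 fold changes were 0.95, 1.44 and 1.96, against -0.32 for *Dll1*.

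Around these genes, 67 further genes of the pathway were listed by role, and 63 of them were tested. Of these, 16 were higher in the MSC-derived cells, 22 were lower and 25 were not called, with a median log2 fold change of -0.13 beside 0.05 for all genes. These counts, too, lie near the 31.3% and 30.3% called among all genes. Differences between roles were not tested, and the counts below describe short lists.

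**Figure D4:**
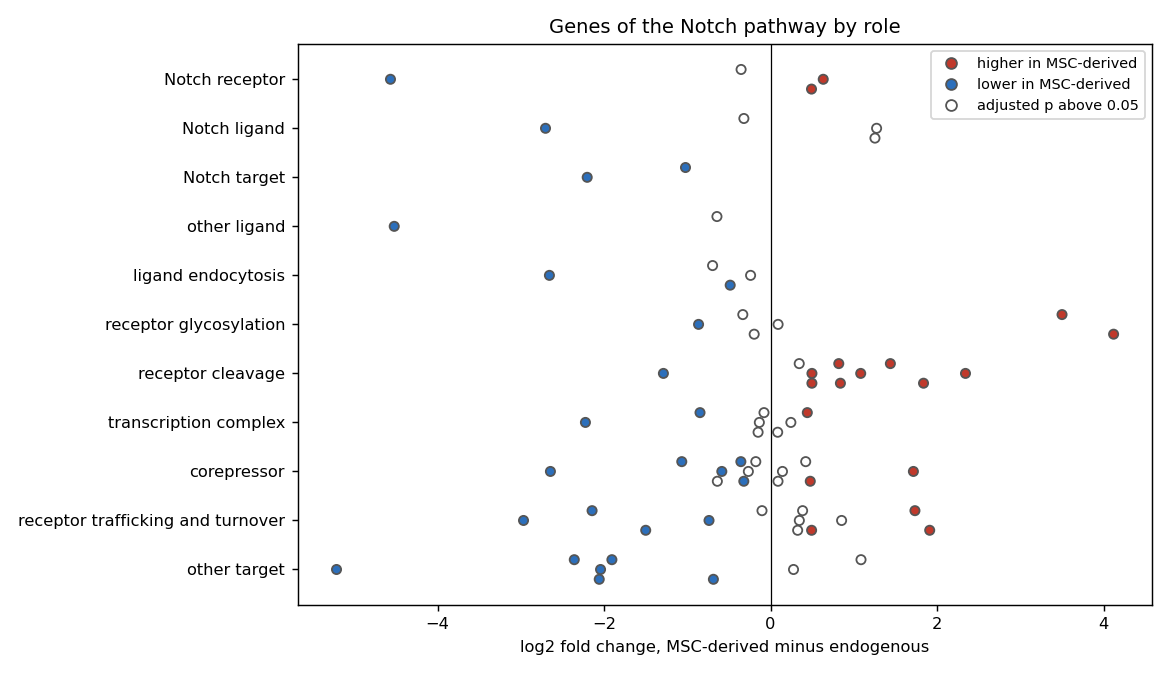
Log2 fold change, MSC-derived minus endogenous, of every tested Notch pathway gene, by role, with filled points for genes called at an adjusted p of 0.05 or less. Of the 10 receptor cleavage genes 8 are filled on the right, and of the 8 other target genes 6 are filled on the left.

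Of the 6 genes that attach sugars to the receptor, 2 were higher, 1 was lower and 3 were not called. The 2 were Fringe enzymes, which change the ligands a Notch receptor answers to. *Mfng* had 537, 549 and 461 counts in the MSC-derived libraries and 2, 54 and 28 in the endogenous ones, with a log2 fold change of 4.12 (SE 0.72, edgeR adjusted p = 0.00178), or 3.53 without endogenous 1 (adjusted p = 3.65e-12). Without endogenous 2 it was larger than with all libraries (adjusted p = 0.00202). *Lfng*, named after its values were seen, had 7740, 7125 and 6733 counts against 553, 677 and 579, with a log2 fold change of 3.50 (SE 0.11, adjusted p = 2.14e-07). The remaining Fringe, *Rfng*, had a log2 fold change of 0.09 (SE 0.16, adjusted p = 0.647), and of -0.33 on log2(TPM + 0.1) (limma adjusted p = 0.0470), close to the median of all genes on that scale. *Poglut1*, which adds the glucose a receptor needs for its function, was lower at -0.86 (SE 0.15, adjusted p = 0.00172).

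Of the 10 receptor cleavage genes, 8 were higher and 1 was lower. Those higher were the ADAM proteases *Adam10* and *Adam17* and the gamma-secretase genes *Psen2*, *Ncstn*, *Aph1a*, *Aph1b*, *Aph1c* and *Psenen*. Of these 8, 4 had a log2 fold change of 1 or more. On log2(TPM + 0.1), 5 of the 8 were called higher, while the groups overlapped in TPM for *Adam10* (log2 fold change 0.41, limma adjusted p = 0.0869), *Adam17* (0.07, adjusted p = 0.756) and *Aph1a* (0.05, adjusted p = 0.643). *Aph1c* had the largest log2 fold change, 2.34 (SE 0.27, edgeR adjusted p = 0.00019), but it is nearly identical to *Aph1b*, so that how the reads were split between them is uncertain. *Furin*, the protease that makes the first cut during receptor maturation, was lower at -1.29 (SE 0.10, adjusted p = 2.75e-05). Gamma-secretase and ADAM proteases have many other substrates.

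In the transcription complex 1 of 8 genes was higher and 2 were lower. *Rbpj*, the DNA-binding subunit, had 1124, 1048 and 1031 counts in the MSC-derived libraries and 1659, 1879 and 1944 in the endogenous ones, a log2 fold change of -0.85 (SE 0.09, edgeR adjusted p = 0.000116). It was named after its values were seen. *Maml2*, a Mastermind co-activator, was lower at -2.22 (SE 0.23, adjusted p = 0.000103), and *Maml1* and *Maml3* were at 0.24 and -0.08 without passing the test. *Ep300*, a histone acetyltransferase, was higher at 0.44 (SE 0.13, adjusted p = 0.0184), a call that was lost without any 1 of the MSC-derived libraries or endogenous 2 (adjusted p 0.0520 to 0.0655) and on log2(TPM + 0.1). Of 13 corepressor genes 2 were higher and 5 were lower, with the Groucho-family genes *Tle4* at 1.72 (SE 0.16) and *Tle2* at -2.64 (SE 0.15) the farthest in each direction.

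Of 12 genes for trafficking and turnover of the receptor, 3 were higher and 4 were lower. *Nedd4*, a ubiquitin ligase with many substrates, was lower at -2.97 (SE 0.12, edgeR adjusted p = 7.92e-07), and *Dtx3l*, of the Deltex family, was higher at 1.91 (SE 0.21, adjusted p = 0.000144). The paralogs *Numb* and *Numbl*, whose products dampen Notch, were named after their values were seen. *Numbl* was lower at -2.14 (SE 0.11, adjusted p = 2.31e-06). *Numb* was at 0.49 (SE 0.12, adjusted p = 0.0106), but on log2(TPM + 0.1) it was at 0.04 (limma adjusted p = 0.814) and the groups overlapped in TPM. Of the 4 genes for ligand endocytosis, which the sending cell needs, 2 were lower, with *Neurl1a* at -2.66 (SE 0.51, adjusted p = 0.00279). The non-canonical ligand *Dlk2* had 3, 2 and 0 counts against 42, 30 and 44 and was called lower (adjusted p = 0.00223), while *Dlk1* had 14, 6 and 10 counts against 0, 20 and 25 and was not called.

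The other target genes followed the direction of *Hes1* and *Hey1* in 6 of the 8 tested. *Heyl*, a further Hey repressor, had 16, 13 and 14 counts in the MSC-derived libraries and 563, 473 and 492 in the endogenous ones, with a log2 fold change of -5.21 (SE 0.21, edgeR adjusted p = 6.97e-07). The remaining 5 were named after their values were seen. *Nrarp*, a feedback inhibitor induced by Notch, was at -2.06 (SE 0.27, adjusted p = 0.000425) with 48, 76 and 55 counts against 234, 262 and 214. *Myc*, *Cdkn1a*, *Bcl2* and *Ccnd1*, which respond to many other signals, were at -2.36, -2.04, -1.91 and -0.69. *Hes7* and *Gata3* were at 0.28 (SE 0.68) and 1.09 (SE 0.41) without passing the test, and *Hes5* and *Hey2* had too few reads to be tested. *Hey2* had 4, 3 and 5 counts against 0, 39 and 78, with the 0 again in endogenous 1. Lower values of chondrocyte, osteoblast, stromal and mural markers and higher values of blood cell markers accompany these differences in the same libraries, and their part in them was not tested.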

How the data were processed

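Bulk RNA sequencing of 6 libraries (3 MSC-derived, 3 endogenous, unstranded TruSeq kit, total RNA) was used. Per the methods, the authors ran SOAPnuke to clean the reads, HISAT2 and Bowtie2 for alignment to genome and gene set, and RSEM for quantification. The submitters' processing notes name Bowtie2 2.2.5, RSEM 1.2.12 and mm9, and the methods give other versions of both tools. The authors deposited expected counts (RSEM estimates, not normalized), FPKM and TPM (both per transcript length), and a normalized signal per gene, which was not tested. Summed FPKM was 808701 to 813572 in MSC-derived and 504768 to 573603 in endogenous libraries, so TPM and FPKM levels of the groups are not on the same scale. In all, 24 columns were mapped to samples by name, and 8 columns of group averages were not used.

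Expected counts were rounded (20.6% of values changed) and fitted in R 4.3.3 with edgeR 4.0.16 (filterByExpr, TMM, glmQLFit, glmQLFTest, no block), with Benjamini-Hochberg adjustment over 14289 genes and a threshold of 0.05. The SE is the log2 fold change over the square root of F. CPM used TMM-scaled library sizes, with a prior count of 2 for profiles. Shares of TPM were compared with exact two-sided permutation tests. Alternatives used DESeq2 1.42.0, limma 3.58.1 and leaving out each library. Scripts were tested on simulated data, where DESeq2 made false calls well above its threshold and edgeR and limma did not. The simulated counts were drawn from edgeR's own fit with few genes changed, unlike these data, so that result may not carry over. The members and gene lists were chosen with earlier results of these data known. Named were all members, the called pathway gene with the largest increase and decrease in each role, the first gene of each marker list, and 3 nearest profiles per member. The replicate numbers come from the sample names. Same-numbered libraries are different mice, and their deviations from the group means correlated at 0.0022 to 0.0178, so the numbers do not pair them. Exons of *Notch1*, *Notch3*, *Dll1* and *Dll4* overlap those of annotated genes on the opposite strand, whose reads an unstranded kit cannot tell apart. Exons of *Notch2* overlap those of a gene on the same strand, whose reads cannot be told apart by strand with any kit. P-values set the difference between the groups against the spread between these libraries. The methods name 3 mice for either sample and do not say whether each library came from a single mouse.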

Additional observations from a re-analysis of the deposited data

How the results depend on the processing

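The 2 members called higher became 0 at an adjusted p of 0.001 or less, 0 at an absolute log2 fold change of 1 or more and 0 on log2(TPM + 0.1), an alternative chosen after seeing the data. They numbered 1 to 3 with 1 library left out, the 1 without MSC-derived 2 and the 3 without endogenous 1. The 4 members called lower numbered 3 to 5 in all alternatives. Of the other pathway genes, the 16 called higher became 8 at 0.001, 9 at an absolute log2 fold change of 1 or more and 10 on log2(TPM + 0.1), and 13 to 22 with 1 library left out. The 22 called lower became 14 at 0.001, 14 at an absolute log2 fold change of 1 or more and 33 on log2(TPM + 0.1). They numbered 20 to 32 with 1 library left out, the 32 without endogenous 1. The shares of all genes called higher and lower, 31.3% and 30.3% in the main fit, moved as well. They were 21.4% and 41.6% on log2(TPM + 0.1), and 37.8% and 38.6% without endogenous 1. Without any other 1 library they were 24.9% to 28.8% and 25.5% to 29.4%. At an absolute log2 fold change of 1 or more they were 19.3% and 21.9%. With a replicate block, 2 members were higher and 4 lower, and 15 pathway genes were higher and 21 lower. The log2 fold change of *Dll1* reversed to 0.40 with the replicate block, 0.0043 on log2(FPKM + 1), 0.49 on log2(FPKM + 0.1), 1.54 with voom weights, 0.26 on log2(TPM + 0.1) and 0.32 without endogenous 2, none of them called, and it was called at -0.95 without endogenous 1. *Dll4* was called on log2(FPKM + 1), at 0.54 (limma adjusted p = 0.0251). The cause was not tested for any of these. *Jag2*, *Dll1*, *Dll4* and *Notch4*, with 0 to 97 counts per library, were not called by edgeR with all 6 libraries, which does not show that they did not differ.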
